A study of Mus musculus with 1183 samples.

Results

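Chemokine receptors are the surface proteins with which leukocytes sense chemokines, the small secreted proteins that attract them into and through tissues. The 9 receptor genes Ccr1, Ccr2, Ccr3, Ccr6, Ccr7, Cx3cr1, Cxcr2, Cxcr3 and Cxcr4 were taken by their symbols from a table of 18072 genes, and all 9 were found in it. Their reads were followed in 1183 single immune cells from the distal lungs of 1 female mouse (598 cells) and 1 male mouse (585 cells), both at postnatal day 7 and both labelled as treated with hyperoxia. Cells had been sorted by flow cytometry onto plates and sequenced with a Tn5 transposase protocol, and the submitters' labels place each cell in 1 of 16 subtypes. All cells of both animals share the age and the treatment. Cells under normal oxygen were not analysed here, so nothing below measures the effect of hyperoxia. The labels give neither the mouse strain nor the oxygen level. Each sex is 1 animal, so sex and animal cannot be told apart, and the spread between the 2 animals is the error given below.

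The receptors belong to the large class of proteins that cross the membrane several times and signal through G proteins of the inhibitory kind, which leads to actin remodelling and directed movement. Inflammatory receptors such as Ccr1, Ccr2 and Cxcr2 are known for bringing monocytes and granulocytes out of the blood. Homeostatic receptors such as Ccr7 and Cxcr4 guide cells to lymphoid organs and hold them in the bone marrow. In the lung the balance of Ccr2 and Cx3cr1 is widely used to tell classical from patrolling monocytes.

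The cells had a median of 1100970 reads, with a range from 16753 to 7560179, and the reads of the 15 subtypes that reached 5 cells per animal were summed into 30 libraries of 6024429 to 235566546 reads. The remaining label, Mac I, holds 1 cell. The labels were checked with 4 marker genes for each of 14 subtypes. All 4 were higher in both animals' libraries than in any other library for B cells, NK cells, neutrophils, basophils, mast cells, DC I, DC III and Mac IV, 3 of 4 were for T cells and Mac III, and 2 of 4 were for IL cells, DC II and Mac V. None of the 4 markers chosen for mast cell II was highest there. Of these, Kit was also a mast cell marker, and Gata2 and Ms4a2 were also basophil markers. A gene highest in mast cells or basophils cannot be highest in mast cell II, so Kit, Gata2 and Ms4a2 do not check that label. Cpa3 was a marker of no other subtype and was not highest in mast cell II either. The count therefore gives no evidence for that label. In the Mac V cells of both animals Plac8 and Ly6c2, known monocyte genes, had their highest levels of any subtype. The Mac V list also held Ace and Ifitm6, and only 2 of the 4 passed this check. The summed level of 4 epithelial markers ranged from 0 to 10792 counts per 1000000 reads (CPM), with the highest value in the DC I of the male, where the surfactant gene Sftpc stood at 10722 CPM. The platelet list reached 8613 CPM in Mac IV through Pf4, and the eosinophil list reached 146.03 CPM with the genes Prg2 and Epx not found in the table. The part of other cell types in the receptor values was not tested.

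Levels are given as CPM of the reads summed over the cells of a subtype in 1 animal. Where 2 values stand together without a name, the first is from the female and the second from the male. Levels of different receptors are not compared because the values are not per gene length. A cell was called positive for a receptor when it kept at least 5 reads of the gene after thinning to 100000 reads, a level of 50 CPM. The labels mention no molecular identifiers, so intervals and floors below cover counting error only. Of all cells, 1178 were deep enough for this and 5 were left out. Differences between subtypes were tested with edgeR's quasi-likelihood F test on the 30 summed libraries, with Benjamini-Hochberg adjustment over 15600 genes and a threshold of 0.05. The subtype labels probably rest on the expression of these same cells, so a call describes how labelled classes differ and is no independent proof of it.

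On chromosome 9 lie 4 of the receptor genes. In the RefSeq gene order Ccr1 and Ccr3 were separated only by Ccr1l1, Ccr3 and Ccr2 were next to each other, and Cx3cr1 stood next to Ccr8 elsewhere on the chromosome. Cxcr2 and Cxcr4 are on chromosome 1, Cxcr2 beside Cxcr1. Ccr6 is on chromosome 17, Ccr7 on chromosome 11 and Cxcr3 on chromosome X. The 250 bases before the annotated start of the 4 genes on chromosome 9 are shown because 3 of them lie close together. The sequences are from RefSeq on GRCm38.p6, written 5′ to 3′ on the strand of the gene, and RefSeq windows were matched for 8 of the 9 receptors, all but Ccr7. Ccr1 is on the minus strand (chr9:123968693-123968942), Ccr3 on the plus strand (chr9:124021721-124021970), Ccr2 on the plus strand (chr9:124101933-124102182) and Cx3cr1 on the minus strand (chr9:120068297-120068546).
Ccr1: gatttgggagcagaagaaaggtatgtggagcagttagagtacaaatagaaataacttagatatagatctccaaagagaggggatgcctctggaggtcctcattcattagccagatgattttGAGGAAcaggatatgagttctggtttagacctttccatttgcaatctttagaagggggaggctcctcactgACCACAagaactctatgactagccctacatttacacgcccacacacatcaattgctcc
Ccr3: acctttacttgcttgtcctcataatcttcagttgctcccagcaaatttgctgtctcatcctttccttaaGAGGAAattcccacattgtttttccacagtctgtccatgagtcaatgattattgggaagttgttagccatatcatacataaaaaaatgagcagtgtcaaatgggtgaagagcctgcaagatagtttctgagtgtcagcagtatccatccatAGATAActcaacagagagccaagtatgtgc
Ccr2: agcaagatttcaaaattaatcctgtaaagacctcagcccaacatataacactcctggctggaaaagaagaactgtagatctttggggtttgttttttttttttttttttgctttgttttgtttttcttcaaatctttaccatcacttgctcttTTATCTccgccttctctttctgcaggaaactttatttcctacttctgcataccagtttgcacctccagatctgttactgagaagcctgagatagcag
Cx3cr1: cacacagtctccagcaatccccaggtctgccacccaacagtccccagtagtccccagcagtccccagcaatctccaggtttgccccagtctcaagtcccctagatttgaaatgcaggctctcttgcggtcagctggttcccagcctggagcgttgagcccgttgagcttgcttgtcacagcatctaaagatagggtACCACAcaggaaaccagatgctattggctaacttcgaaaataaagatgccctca
Capitals mark matches, on either strand, to 5 short motifs of myeloid and lymphoid factors: GAGGAA for the core of PU.1 sites, AGATAA for GATA factors, the variant TGATAA for the same factors, TGTGGT for RUNX factors, and the C/EBP element TTGCNNAA. The Ccr1 window held GAGGAA and TGTGGT, the Ccr3 window GAGGAA and AGATAA, the Ccr2 window AGATAA, and the Cx3cr1 window TGTGGT. Of 32851 windows of this length, 23.3% held GAGGAA, 9.99% AGATAA, 7.94% TGATAA, 14.05% TGTGGT and 9.56% TTGCNNAA, so such matches are common. No match overlapped another in these 4 windows, and a match of letters is not a measured binding site.

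Each receptor had a restricted set of subtypes, and the sets differed between receptors (the heatmap of levels shows all 30 libraries). All 9 receptors differed over the 15 subtypes, with edgeR adjusted p-values from 7.20e-08 for Ccr2 to 0.0334 for Ccr6. Of all genes tested, 34.3% were called in the same test. The call for Ccr6 was lost with the animal as a block (adjusted p = 0.0678 in edgeR) and in DESeq2 (adjusted p = 0.961), and in edgeR without the B cells of the male (0.0631) or the Mac III of the female (0.0605) or the male (0.0599). A code in the title of each cell is read here as its run. The call for Cxcr4 was lost within the run that both animals share (adjusted p = 0.0617 in edgeR against 0.00548 with all cells). Of the thinned cells, 41.7% were positive for Ccr1, 21.9% for Cx3cr1, 20.5% for Ccr2, 13.6% for Cxcr2, 9.85% for Ccr7, 6.20% for Cxcr3, 5.43% for Cxcr4, 1.27% (15 cells) for Ccr3 and 0.849% (10 cells) for Ccr6.

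**Figure D1:**
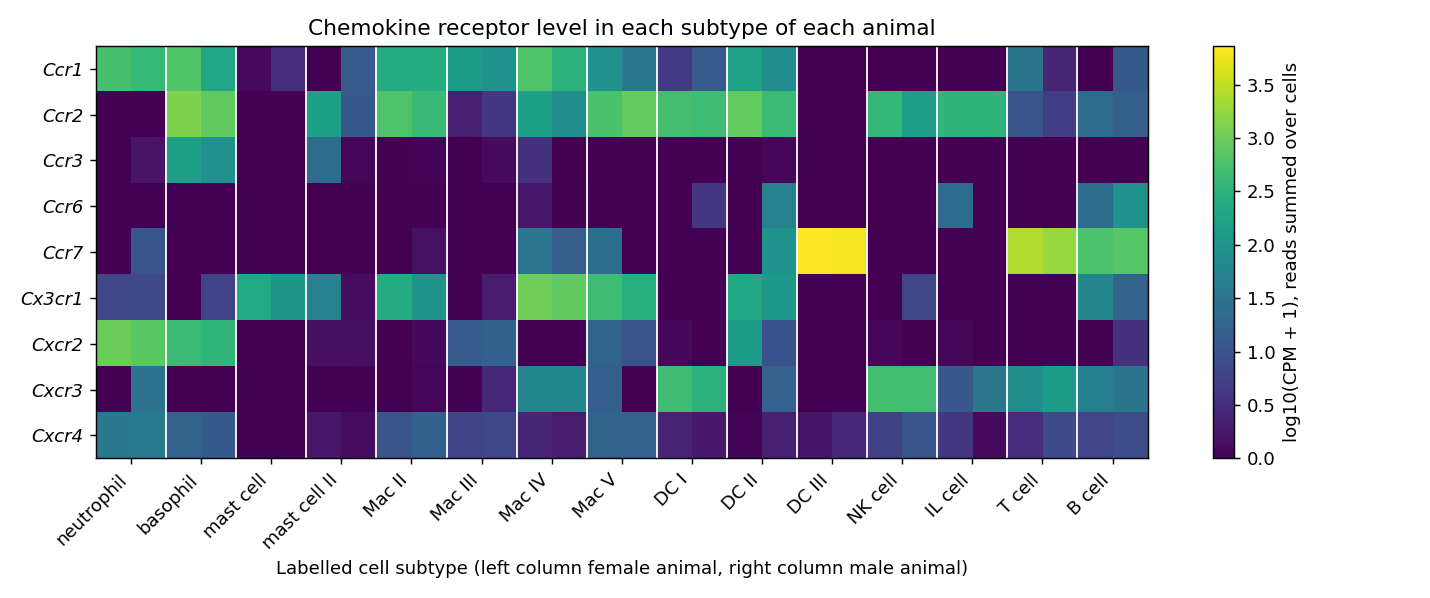
Level of the 9 receptors as log10(CPM + 1) (colour) in 15 labelled subtypes (columns), with the female animal left and the male right within each subtype. Ccr7 in DC III, at 7281 and 6443 CPM, is the brightest pair, and Cxcr4 reaches at most 36.7 CPM, in the neutrophils of the male.

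Ccr1, a receptor for Ccl3, Ccl5 and other inflammatory chemokines, was positive in the most cells of the 9 and reached at least 10 CPM in both animals in 7 subtypes. Neutrophils had 543 and 386.9 CPM. In Mac IV, the macrophages that carry the complement genes C1qa, C1qb and C1qc, it stood at 626 and 300 CPM. In basophils it stood at 650 and 193.2 CPM. These 3 subtypes overlapped between animals and have no order among themselves. Mac II followed with 235.6 and 244.8 CPM, and Mac III, the class with the alveolar macrophage genes Car4 and Krt79, had 130.5 and 90.9 CPM. In Mac V the levels were 91.03 and 34.9 CPM, and 52.8% of the reads of the female came from 1 cell. No read was found in DC III, NK cells or IL cells of either animal. The share of Ccr1-positive cells was alike in both animals in Mac IV, 76.2% (95% exact binomial interval 63.8 to 86.02%, 48 of 63 cells) in the female and 75.9% (65.02 to 84.9%, 60 of 79 cells) in the male. In Mac III it was 50.3% (42.8 to 57.8%) and 45.7% (38.8 to 52.7%), so that about as many Mac III cells lacked the transcript at this depth as had it. The higher summed level of Mac IV in the female came from 1 plate: it was 1006 CPM on the first plate of the female and 274.9 CPM on the second, beside 328.1 and 283.9 CPM on the plates of the male. Run and plate cannot be told apart there.

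Ccr2, the receptor for Ccl2, Ccl7 and Ccl12 that lets classical monocytes leave the marrow and enter tissue, reached at least 10 CPM in both animals in 10 subtypes and was highest in basophils, monocyte-like and dendritic classes. Basophils had 1243 and 841 CPM, and 52 of 53 of them were positive: 100% (89.7 to 100%, 34 of 34) in the female and 94.7% (73.97 to 99.9%, 18 of 19) in the male. Mac V had 572 and 893 CPM, DC II 865 and 427 CPM, Mac II 631 and 399 CPM, and DC I 529 and 465 CPM. IL cells had 341.2 and 329.2 CPM from 9 and 5 cells. In NK cells, of which there were only 5 and 7, the level was 373.5 and 142.9 CPM, and within the shared run the female value was 782 CPM from 2 cells. These neighbours overlap in order, except that both DC I libraries lay above both IL libraries. At the other end, the neutrophils gave 1 read in each animal out of 42183313 and 52497205 reads, the mast cells 1 read in all, and DC III none. None of 55 and 78 neutrophils was positive, which allows up to 6.49% and 4.62% by the exact interval. Mac III had 1.12 and 3.23 CPM. In mast cell II the female value of 152.7 CPM rested on 1 cell that gave 99.7% of the reads, and it was 0.879 CPM within the shared run.

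**Figure D2:**
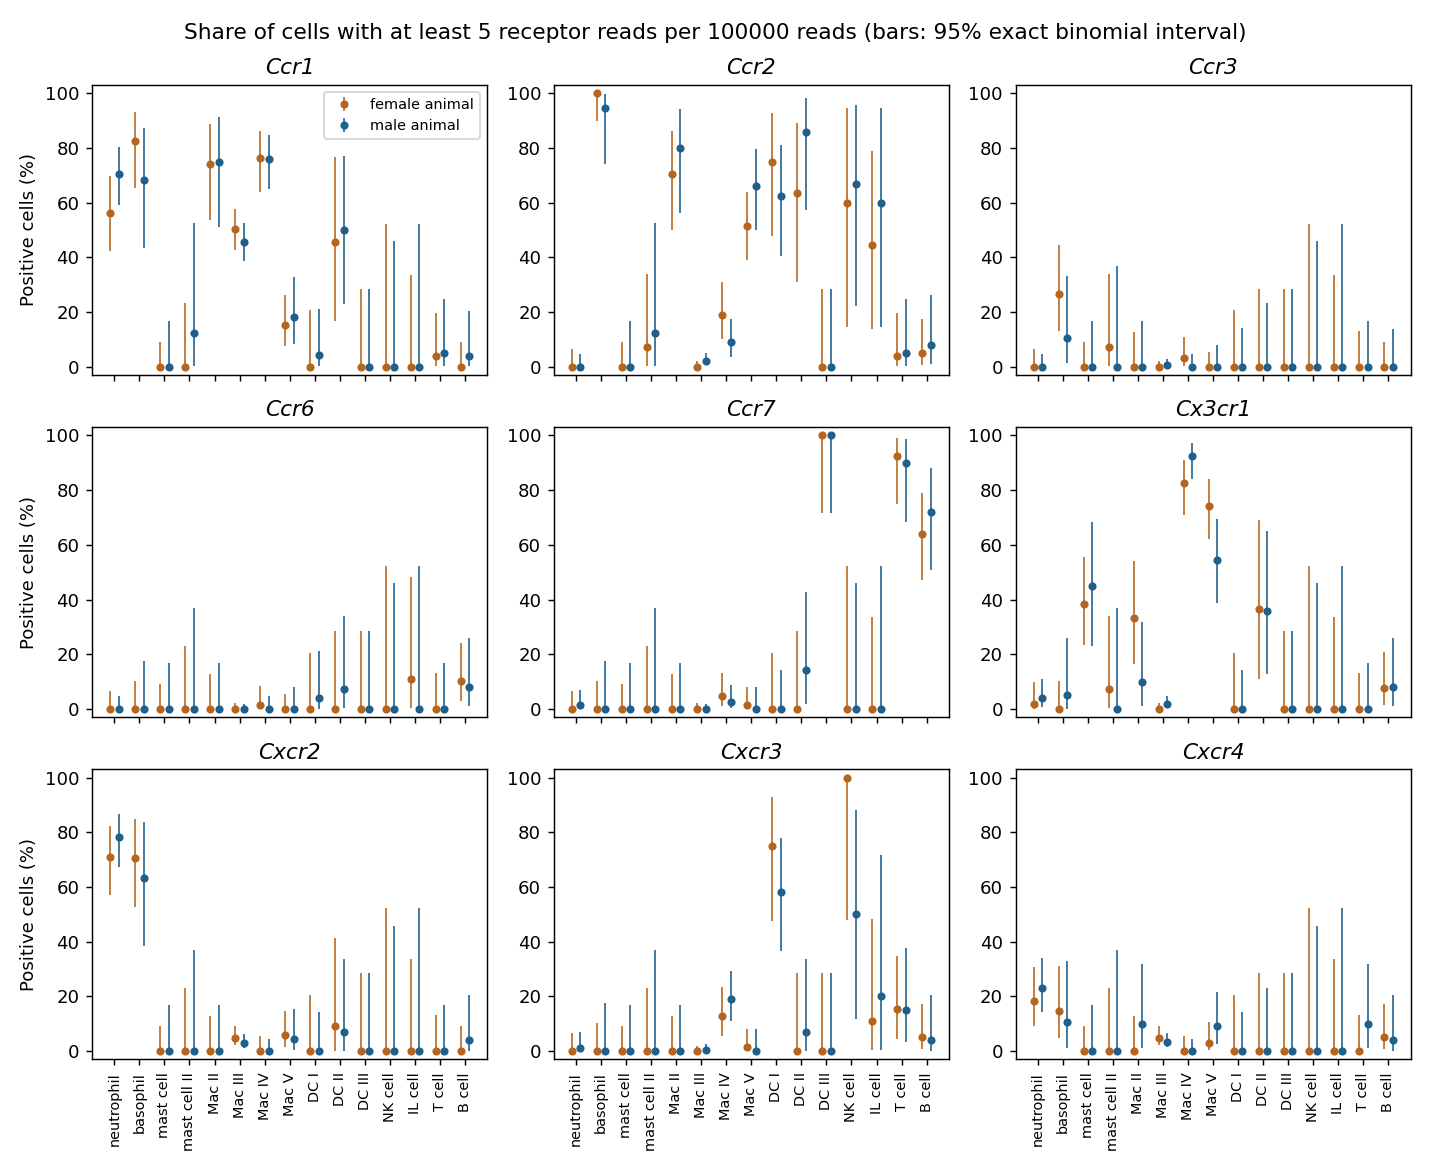
Share of positive cells (vertical axis, %) for each receptor in 15 labelled subtypes of the female and the male animal, with 95% exact binomial intervals that cover counting error only. Ccr7 marks all 22 DC III cells, Ccr2 52 of 53 basophils, and Ccr6 reaches at most 11.1% in any library.

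Ccr3, the eotaxin receptor best known from eosinophils and also carried by basophils, was above 10 CPM in both animals only in basophils. The level was 152.96 and 87.5 CPM. Few cells held it: 9 of 34 basophils of the female (26.5%, 12.9 to 44.4%) and 2 of 19 of the male (10.5%, 1.30 to 33.1%) were positive. A single cell gave 41.97% of the female reads and another 60.98% of the male reads, and within the shared run the female level was 57.3 CPM. The Ccr3-positive basophils carried basophil genes. Mcpt8, a basophil protease, was found in 88.9% of them in the female and in 100% in the male, beside 92% and 100% of the Ccr3-negative basophils. Il5ra, an eosinophil receptor gene, was positive in none of the basophils.

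Cx3cr1, the receptor for fractalkine (Cx3cl1) known from patrolling monocytes and resident macrophages, was highest in Mac IV. The level there was 1041 and 838 CPM, and 82.5% (70.9 to 90.9%) and 92.4% (84.2 to 97.2%) of the cells were positive. Mac V came next with 453 and 265.4 CPM, and both of its libraries lay below both of Mac IV. Mac II followed with 235.3 and 97.2 CPM, also apart from Mac V. Mast cells, which held almost no other receptor, had 212.6 and 111.2 CPM. Of the mast cells, 38.5% (23.4 to 55.4%, 15 of 39) in the female and 45% (23.1 to 68.5%, 9 of 20) in the male were Cx3cr1-positive. The mast cell genes Cma1 and Tpsb2 were positive in at least 93.3% of the Cx3cr1-positive mast cells of each animal. DC II had 200.6 and 115.3 CPM, with 74.3% and 52.2% of the reads from 1 cell each. Mac III, the class with the most cells, stood at 0.0143 and 0.938 CPM. In GENCODE M21 the gene model of Cx3cr1 overlaps 9 other models, and whether the counting used strand is not stated, so some of its reads could belong to or be lost to those models. The other 8 receptors overlap none.

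Cxcr2, the receptor for Cxcl1, Cxcl2 and related chemokines that drives neutrophil recruitment, was nearly limited to granulocytes. Neutrophils had 1001 and 755 CPM, and basophils 436 and 350.5 CPM. Both neutrophil libraries lay above both basophil libraries. The share of positive cells was close in the 2 classes: 70.9% (57.1 to 82.4%) and 78.2% (67.4 to 86.8%) of neutrophils, and 70.6% (52.5 to 84.9%) and 63.2% (38.4 to 83.7%) of basophils. The next level, 125.2 CPM in the DC II of the female, came to 98.9% from 1 cell and was 2.17 CPM within the shared run. Mac III had 12.4 and 14.8 CPM and Mac V 16.4 and 8.86 CPM. All 59 mast cells together gave 2 reads.

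Cxcr3, which responds to the interferon-induced Cxcl9 and Cxcl10, was highest in NK cells. DC I, the class with the cross-presenting dendritic cell genes Xcr1 and Clec9a, came next. NK cells had 486 and 473 CPM, from only 5 and 7 cells. DC I had 458 and 304.3 CPM, with 75% (47.6 to 92.7%, 12 of 16) and 58.3% (36.6 to 77.9%, 14 of 24) of the cells positive. T cells had 83.3 and 130 CPM, but only 4 of 26 and 3 of 20 of them were positive. Mac IV, a macrophage class, had 57.3 and 57.97 CPM, with 12.7% (5.65 to 23.5%) and 18.99% (11.03 to 29.4%) of the cells positive. In order of level NK cells, DC I, T cells, Mac IV and B cells were each apart from the next in both animals. By plate NK cells and DC I overlapped. In the female, NK cells had 391.8 CPM on plate 1 and DC I had 506.1 CPM on plate 2. No read was found in DC III, basophils or mast cells.

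Ccr7, the receptor for Ccl19 and Ccl21 that takes mature dendritic cells and naive lymphocytes to lymph nodes, was high in 3 classes and near 0 in most others. DC III, which carries the genes Fscn1 and Ccl22 of mature migrating dendritic cells, had 7281 and 6443 CPM, and all 11 cells of each animal were positive (71.5 to 100%). T cells had 2482 and 1798 CPM with 92.3% (74.9 to 99.1%) and 90% (68.3 to 98.8%) positive. B cells had 587 and 692 CPM with 64.1% (47.2 to 78.8%) and 72% (50.6 to 87.9%) positive. These 3 classes were apart in both animals. Below them DC II had 0 and 93.4 CPM, and 90.6% of the male reads came from 1 cell. Basophils, NK cells, IL cells, DC I and mast cell II gave no read, and the 390 Mac III cells gave 5.

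Ccr6, the receptor for Ccl20 that is known from B cells and some innate and helper lymphocytes, was the rarest transcript. B cells had 22.02 and 93.3 CPM, and 4 of 39 and 2 of 25 of them were positive. Single cells gave 40.7% and 56.1% of these reads. DC II had 0 and 47.02 CPM from 1 cell, and IL cells 21.5 and 0 CPM. The 6 Ccr6-positive B cells were all positive for Ighd, the gene of membrane IgD, and 5 of the 6 were also positive for Ccr7. In 9 subtypes no Ccr6 read was found.

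Cxcr4, the Cxcl12 receptor that keeps leukocytes and their precursors in the marrow, was read in many cells and in few of them at a level that counts. A read was found in 492 cells, or 41.6%, but the median over those cells was 7 reads, and 64 cells were positive. Neutrophils had the highest level, 33.9 and 36.7 CPM, with 18.2% (9.08 to 30.9%) and 23.1% (14.3 to 34%) of the cells positive. Mac V had 16.3 and 15.3 CPM, basophils 16.04 and 11.5 CPM, and Mac II 9.53 and 14.8 CPM. Both neutrophil libraries lay above both Mac V libraries, and the classes after Mac V overlapped. Mast cells gave no read, in 39 cells of the female and 20 of the male.

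Basophils carried the most kinds of these receptors per cell. The mean number of the 9 receptors per cell was 2.73 ± 0.29 (SD, n = 2 animals) in basophils, 1.99 ± 0.0090 in Mac IV, 1.81 ± 0.37 in DC II, 1.76 ± 0.020 in Mac II, 1.63 ± 0.22 in neutrophils and 1.53 ± 0.0054 in Mac V. Mac III had 0.585 ± 0.025, mast cells 0.417 ± 0.046 and mast cell II 0.232 ± 0.025. At least 2 receptors were found in 97.1% of the basophils of the female and 89.5% of those of the male, against 3.87% and 4.33% of Mac III and none of the mast cells. All cells counted here were thinned to the same depth, and the count says nothing of receptors outside the 9.

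**Figure D3:**
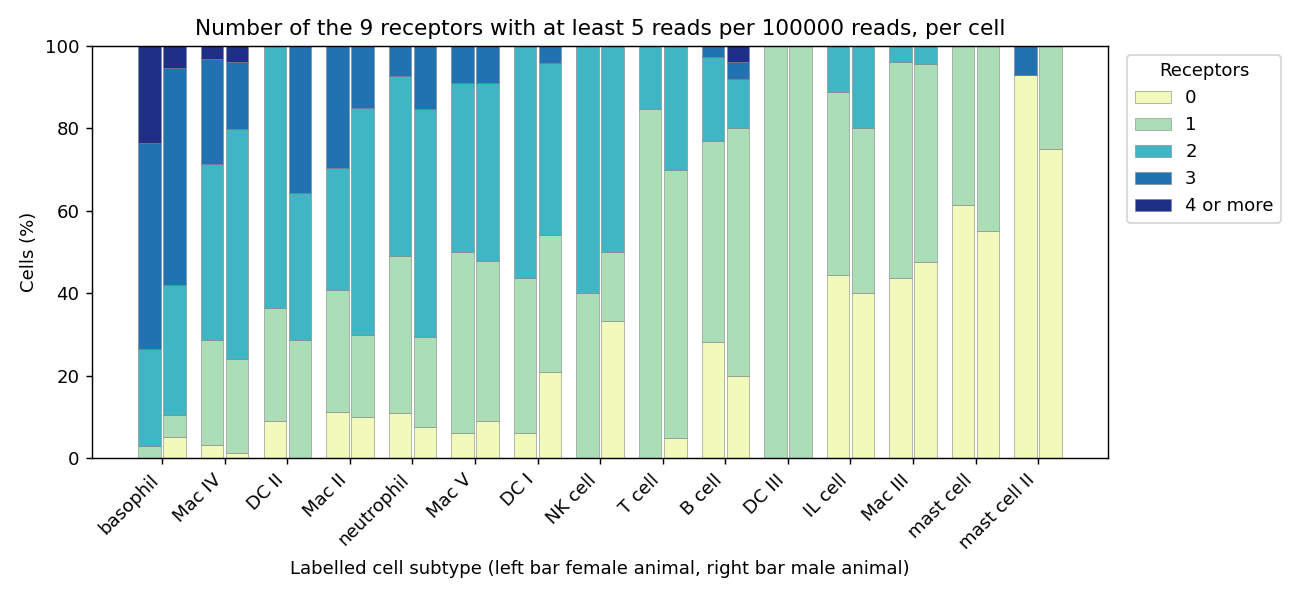
Share of cells (vertical axis, %) with 0, 1, 2, 3 or 4 and more of the 9 receptors, for each subtype in the order of its mean, left bar female animal and right bar male animal. Basophils stand first with a mean of 2.73 receptors, every DC III cell has exactly 1, and mast cells have none or 1.

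The combinations were characteristic for their class as a description. Ccr1, Ccr2 and Cxcr2 without any other were found in 19 of 53 basophils, 11 of the female and 8 of the male. Ccr1 with Cxcr2 was the leading pair in neutrophils, in 54 cells or 40.6%, and Ccr1 with Cx3cr1 in Mac IV, in 62 cells or 43.7%. Mac II was led by Ccr1 with Ccr2, in 17 of 47 cells, and a further 10 cells had Cx3cr1 in addition. DC I was led by Ccr2 with Cxcr3, in 18 of 40 cells, and so were the NK cells, in 6 of 11. All 22 DC III cells held Ccr7 alone, and 33 of 46 T cells did. Mast cells held Cx3cr1 alone in 24 of 59 cells and no receptor in 35. In Mac III 45.8% of the cells held none and 44.5% held Ccr1 alone.

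In Mac V the cells with Ccr2 and the cells with Cx3cr1 were partly different cells. In the female 13 cells were positive for Ccr2 only, 28 for Cx3cr1 only, 21 for both and 4 for neither, and in the male 16, 11, 13 and 4. Of the Ccr2-positive cells 61.8% and 44.8% were Cx3cr1-positive, against 87.5% and 73.3% of the Ccr2-negative cells. Over cells, Pearson's r of the log2 levels was -0.42 in the female (66 cells) and -0.37 in the male (44 cells). No p is given because the cells of an animal share their library preparation and depth. Other monocyte genes followed the split, and these genes were chosen after the data were seen. Ly6c2, a gene of classical monocytes, was positive in 73.5% and 75.9% of the Ccr2-positive cells of the female and the male and in 9.38% and 13.3% of the Ccr2-negative cells. In the other direction, Ace and Treml4, genes of non-classical monocytes, were positive in 32.4% and 17.2% against 84.4% and 80%, and in 47.1% and 27.6% against 96.9% and 93.3%. The Ccr2-negative Mac V cells were the less deep ones, with a median of 689506 and 639877 reads against 1327160 and 1103850. The shares are at equal depth after thinning, and the part of depth in the split was not tested.

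**Figure D4:**
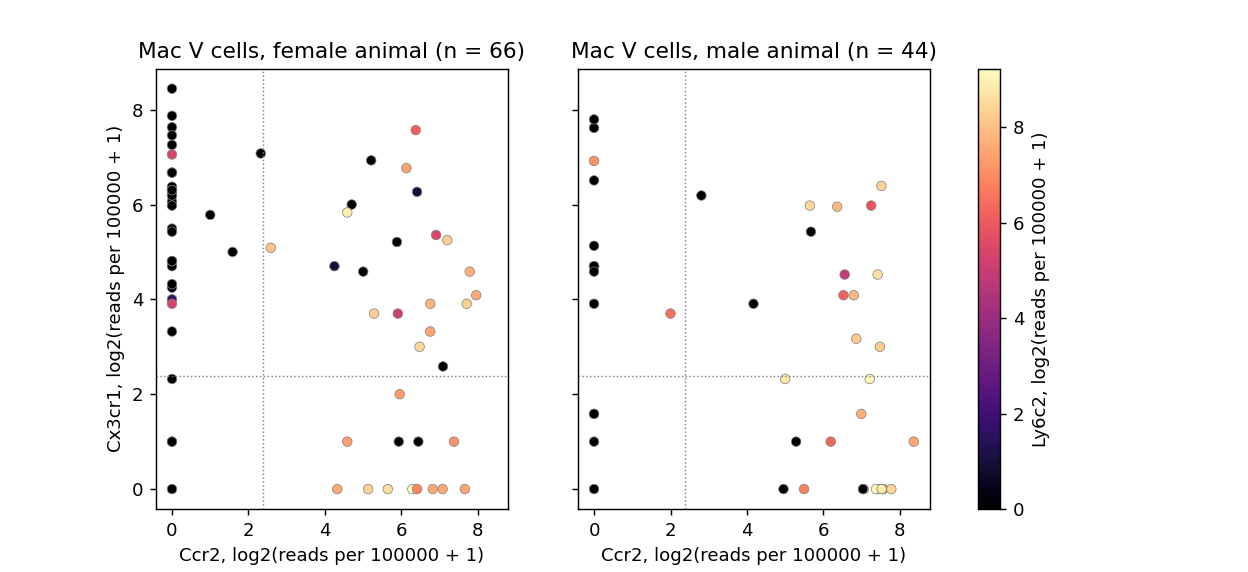
Ccr2 (horizontal axis) and Cx3cr1 (vertical axis) in each Mac V cell of the female (left, 66 cells) and the male (right, 44 cells), as log2(reads per 100000 + 1), coloured by Ly6c2. Dotted lines mark the limit of 5 reads. Cells with high Ly6c2 lie mostly to the right of the Ccr2 limit.

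Similar splits were present within Mac IV, again for genes chosen after the data were seen. The part of depth in them was not tested. The few Ccr2-positive cells, 12 of 63 and 7 of 79, were positive for H2-Ab1, an MHC class II gene, in 58.3% and 42.9%, against 7.84% and 4.17% of the Ccr2-negative cells. Lyve1, a gene of perivascular resident macrophages, was positive in none of them and in 39.2% and 40.3% of the Ccr2-negative cells. The Cxcr3-positive Mac IV cells, 8 and 15 in number, went with another gene, Folr2, which was positive in 75% and 60% of them and in 30.9% and 25% of the others. All Cxcr3-positive Mac IV cells were positive for C1qa, and Xcr1 of DC I was positive in 1 of the 23.

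Neutrophils and B cells were split in the same way, by genes chosen after the data were seen, and the part of depth was not tested. Neutrophils divided by Cxcr2. Camp and Ltf are genes of granule proteins made before neutrophils are mature. They were positive in 5.13% and 5.13% of the Cxcr2-positive cells of the female and in 37.5% and 31.2% of the Cxcr2-negative cells. In the male the shares were 18.03% and 16.4% against 29.4% and 29.4%, a smaller gap in the same direction. Il1b, the gene of the inflammatory cytokine interleukin-1 beta, was positive in 87.2% and 80.3% of the Cxcr2-positive cells of the female and the male and in 56.2% and 47.1% of the Cxcr2-negative cells. Division by Ccr1 gave gaps of opposite direction in the 2 animals for Camp, Ltf or Il1b. In B cells the Ccr7-positive cells were more often positive for Cxcr5, a follicle-homing receptor, with 52% and 33.3% against 14.3% and 14.3%. Ms4a1, the gene of CD20, was positive in 96% and 88.9% of them against 71.4% and 57.1%, and Ighd in 80% and 83.3% against 64.3% and 28.6%. The Ccr7-negative B cells numbered 14 and 7, and cells are not replicates, so no test was made.

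**Figure D5:**
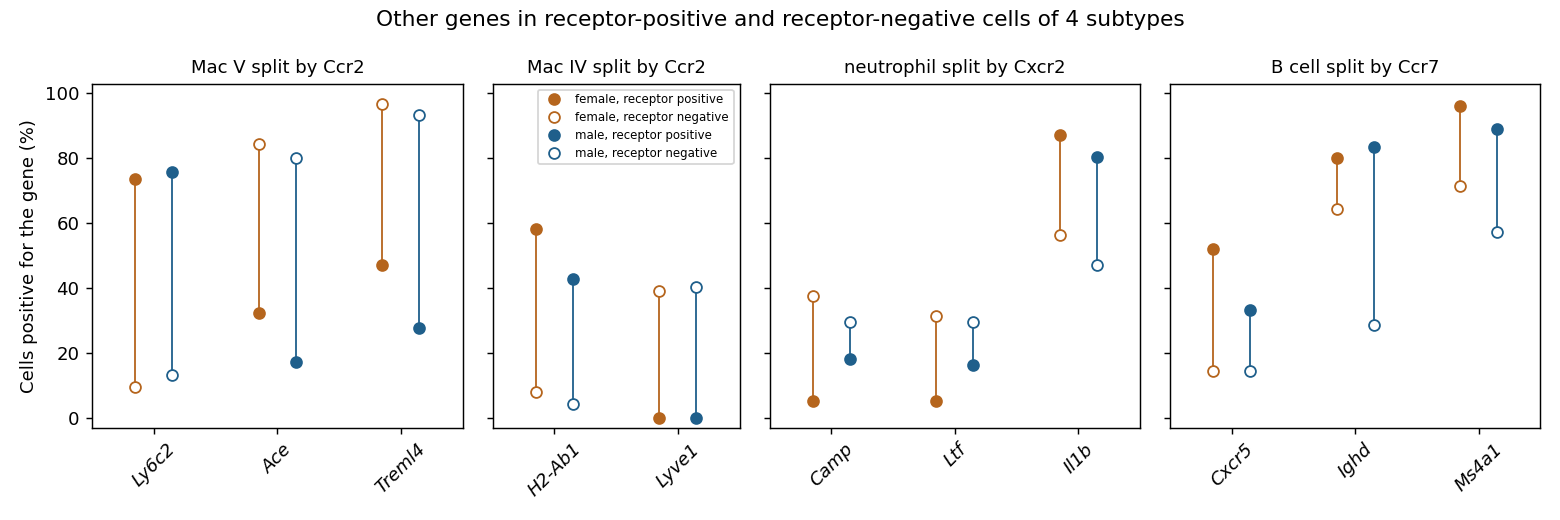
Share of cells positive for other genes (vertical axis, %) in receptor-positive cells (filled) and receptor-negative cells (open) of 4 subtypes, per animal. The Ly6c2 share of Ccr2-positive Mac V cells is 73.5% and 75.9% against 9.38% and 13.3%, and Lyve1 is at 0% in Ccr2-positive Mac IV cells.

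Neutrophils and Mac V, 2 of the myeloid classes known to enter tissue from the blood, were told apart by Ccr2. Mac V had 88924 Ccr2 reads in both animals and neutrophils 2, a level 32454 times higher in CPM (counting interval 8984 to 267990). Ccr2 was the only receptor called (edgeR adjusted p = 3.31e-05, and 0.00379 at most over 7 other settings), among 63 genes or 0.404% of those tested. Cxcr2 stood 62.9-fold higher in the summed neutrophil reads with both animals on the same side. It missed the threshold with a log2 difference of 6.55 ± 1.62 (SE) and an edgeR adjusted p of 0.0972, and DESeq2 and a fit of the pair alone called it (lowest adjusted p 5.87e-05). Cx3cr1 was 65.8-fold lower in neutrophils and was not called either (edgeR adjusted p = 0.331), though the fit of the pair alone called it (adjusted p = 0.017). The share of genes called fell to 0.0361% and 0.012% without the Mac V of the female and the male and to 0.0482% without the neutrophils of the female, and it was 0.658% without those of the male.

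By edgeR with all libraries in 1 fit, no receptor was called between Mac II or Mac IV and Mac V, the macrophage and monocyte labels that shared most receptors. Mac II against Mac V gave 18 called genes, 0.115% of those tested, and no receptor (edgeR; 2 of the 9 had an unadjusted p under 0.05, as did 1188 genes in all). DESeq2 called Cxcr2, lower in Mac II (log2 difference -6.64, adjusted p = 0.000393). Mac IV against Mac V gave 26, or 0.167%, and again no receptor by edgeR. There 4 of the 9 had an unadjusted edgeR p under 0.05, as did 1660 of the 15600 genes tested. The levels themselves lay apart for several receptors. Ccr2 was 6.16-fold lower in the summed reads of Mac IV, 149.3 and 80.7 CPM against 572 and 893 CPM, with a log2 difference of -2.78 ± 0.86 (SE) and an edgeR adjusted p of 0.296. Cxcr2 was 209.4-fold lower in Mac IV with 14 reads in all and an edgeR adjusted p of 0.0987. DESeq2 called Cxcr2 and Cxcr4 in this comparison (adjusted p = 2.08e-05 and 0.0108). The edgeR fit of the pair alone called Ccr2 (adjusted p = 0.0291), and edgeR with each cell scaled called Cxcr2 (adjusted p = 0.0272). Without 1 library the counts were 3 or 4 for Mac II against Mac V. For Mac IV against Mac V they were 7 without the Mac IV of the female, 3 without those of the male and 0 without either Mac V library. The simulated data made for Mac IV against Mac V show what this design can find for genes above a minimum Mac V level. Of such genes, 35 of 100 with a 32-fold change and 6 of 100 with an 8-fold change were called, with no false call. Each gene was given the spread usual for its level. Cxcr2 and Cxcr4 lay below that minimum in Mac V, so these rates do not cover them.

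DC III lacked the receptors that DC II had. DC III against DC II gave 715 called genes, 4.58% of those tested, of which 578 were lower in DC III, and 4 of the 9 receptors were called, all lower. Ccr2 had no read in DC III against 19020 in DC II, at least 5249-fold lower when 3 reads over the group are taken as the floor (edgeR adjusted p = 9.34e-06). Ccr1 had none against 3481, at least 961-fold lower (edgeR adjusted p = 0.0353). Cxcr2 had none against 1803, at least 498-fold lower (edgeR adjusted p = 0.00381), but nearly all of the DC II reads came from 1 cell of the female. Within the shared run the Cxcr2 call was lost (edgeR adjusted p = 0.0597), and so it was in the fit of the pair alone (adjusted p = 0.123). Cx3cr1 had 1 read against 4704, a level 3895 times lower in CPM (counting interval 699 to 153858, edgeR adjusted p = 0.0375). The calls for Ccr1 and Cx3cr1 were lost when any 1 of the 4 libraries was left out, with edgeR adjusted p-values of 0.0548 to 0.180 for Ccr1 and 0.0631 to 0.218 for Cx3cr1. Ccr7 was 126.04-fold higher in the summed reads of DC III, 7281 and 6443 CPM against 0 and 93.4 CPM. It was not called (log2 difference 7.59 ± 2.96, edgeR adjusted p = 0.157), and the highest adjusted p over 7 other settings was 0.182. DESeq2 called Ccr6 and Cxcr3 in addition, both lower in DC III (adjusted p = 0.0272 and 3.53e-09). Both calls rest on DC II reads of the male alone, all from its plate 2. The DC II levels were 0 and 47.02 CPM for Ccr6 and 0 and 15.2 CPM for Cxcr3. Of the Ccr6 reads of the male, 99.8% came from 1 cell. Neither receptor was called by edgeR (adjusted p = 0.223 for Ccr6 and 0.202 for Cxcr3). Without 1 library the share of genes called was 2.44% (DC II of the female), 2.59% (DC II of the male), 2.03% (DC III of the female) and 3.24% (DC III of the male).

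T cells against B cells gave 15 called genes, 0.0962% of those tested, and no receptor by edgeR, with 3 of 9 under an unadjusted p of 0.05 and 1460 genes in all. No gene was called without either T cell library, 7 without the B cells of the male and 11 without those of the female. Ccr7 was 3.53-fold higher in the summed T cell reads and Cxcr3 2.56-fold, with both animals on the same side. Their edgeR adjusted p-values both rounded to 1. Ccr6 had no read in T cells against 4153 in B cells (edgeR adjusted p = 0.489), and DESeq2 called it together with Cx3cr1 and Cxcr2.

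Basophils and mast cells, which share the high-affinity IgE receptor, had nearly opposite sets. Of the genes tested 1.71% were called, and 3 of them were receptors, all higher in basophils: Ccr2, Cxcr2 and Cxcr4. Ccr2 had 77951 reads against 1 (edgeR adjusted p = 5.29e-06) and Cxcr2 28412 against 2 (edgeR adjusted p = 0.00164), and both stayed called in all 7 other settings and with any 1 of the 4 libraries left out. Cxcr4 had 1018 reads against none, at least 439-fold higher (edgeR adjusted p = 0.00974), and this call was lost within the shared run and in the fit of the pair alone (highest adjusted p 0.126), and without the mast cells of the female (0.129) or the male (0.117). Ccr1 was 620-fold higher in the summed basophil reads without being called (log2 difference 8.62 ± 2.60, edgeR adjusted p = 0.107). Ccr3 had 9277 reads against 1 and an edgeR adjusted p of 0.112. DESeq2 and the fit of the pair alone called both. Cx3cr1 went the other way and was 127.8-fold lower in the summed basophil reads (edgeR adjusted p = 0.213), and DESeq2 called it (adjusted p = 0.0325). DESeq2 also called Ccr7, lower in basophils (adjusted p = 0.0163). That call rests on 1 Ccr7 read in mast cells against 0 in basophils, and edgeR did not make it (adjusted p = 0.956). Without 1 library the share of genes called was 1.04% (basophils of the female), 0.587% (basophils of the male), 0.827% (mast cells of the female) and 0.678% (mast cells of the male).

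The animals differed in level by receptor. In the subtypes with at least 10 CPM in either animal, Cx3cr1 was higher in the female in 7 of 7 subtypes and Ccr2 in 9 of 10, with Mac V as the exception. Ccr1 was higher in the female in 7 of 11 subtypes, Ccr7 in 4 of 6 and Cxcr3 in 4 of 9. With 1 animal of each sex and with runs that only the female or only the male has, animal, sex and run cannot be told apart. Within the shared run the female Ccr1 level of Mac IV was 274.9 CPM beside 300.3 CPM in the male, and the Ccr1 level of DC II was 74.04 beside 73.4 CPM.

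The other chemokine receptors had their own classes. Of 16 further receptor genes, 14 were in the table, 13 were tested and 12 were called over all subtypes, beside 34.3% of all genes. Cxcr6 was highest in IL cells, at 1736 and 1895 CPM, and so was Ccr8, at 455 and 733 CPM. Xcr1 stood at 530 and 385.03 CPM in DC I and Cxcr5 at 247.4 and 98.2 CPM in B cells. Ccr10 stood at 3.89 and 403 CPM in NK cells, a level of 1 animal. Between DC III and DC II their median log2 difference was 0.00, beside -0.13 over all genes.

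Signalling partners were followed as well. Of 25 genes that act behind these receptors, 22 were tested and 13 were called over all subtypes, where 34.3% of all genes were called. Among the 13 were Gnai2 (the inhibitory G protein), Rac2 (a regulator of actin in leukocytes) and Rgs1, Rgs2 and Rgs18 (which switch G proteins off). Rgs1 was highest in DC III at 5985 and 2879 CPM. Rac2 was highest in NK cells in the male alone, at 4268 CPM, and the female value of 2312 CPM lay below the 3031 CPM of the female basophils. Rgs2 was highest in basophils at 3148 and 3035 CPM and Rgs18 in mast cells at 656 and 398 CPM. Gnai2 in basophils (1567 and 1711 CPM) overlapped with neutrophils (1297 and 1713 CPM). In DC III against DC II 1 of the 22 rose, Rgs1, and 3 fell, Gng2, Rac2 and Rgs18, with a median log2 difference of -0.03. Of all genes, 4.58% were called there. In the other 5 pairs none of the 22 was called by edgeR. Ligand genes of the 9 receptors were read from the same cells. All 17 ligand genes tested differed over the subtypes, beside 34.3% of all genes. Ccl3 was highest in basophils, at 17848 and 27224 CPM, Ccl5 in DC III at 13847 and 29487 CPM, and Ccl6 in Mac III at 13072 and 16291 CPM. Ccl2, a ligand of Ccr2, stood at 1187 and 3986 CPM in Mac IV and at 1452 and 1780 CPM in mast cells, which overlapped. Ccl7 and Ccl12, further ligands of Ccr2, were called higher in Mac IV than in Mac V, 2 of 17 ligand genes beside 0.167% of all genes.

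For each receptor the genes with the most similar pattern were sought over the 30 libraries, as Pearson's r of log2(CPM + 1) among 14398 genes. Libraries of 1 animal share plates and depth, and no p is given. Ccr1 was most like Cebpd (r = 0.91), Nlrp3 and Clec4a2. Cxcr2 was most like Chst13 (0.84), Il1r2 and Dgkg, and Cxcr4 like Tfap2a (0.83), Bmx and Lyst. Ccr3 was most like Mylk3 (0.90), Slc6a9 and Slc26a3. Ccr7 was most like Tcf7 (0.79), Colq and Slamf1, Cx3cr1 like Oas1a (0.77), Abca9 and Clec4a1, and Cxcr3 like Ppp1r16b (0.76), Lamb3 and Rtn4rl1. Ccr6 was most like Iglv3 (0.87), Mzb1 and Cdh24. Ccr2 had the weakest neighbour, Pyurf (0.75), followed by Lpar6 and Hsp90b1. Among the 9 receptors themselves the closest pair was Ccr1 with Cxcr2 (r = 0.64), and Ccr1 with its neighbours on chromosome 9, Ccr2 and Ccr3, gave 0.19 and 0.27.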

How the data were processed

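Raw read counts per gene and cell were deposited by the authors as 1 table for 1183 cells, with a second table of cell labels. Per the submitters' processing notes, STAR 2.5.2b and HTSeq 0.10 were used, and the build named there is GRCh38, a human build name beside mouse cells. The roles and settings of the tools are not given in the sources used here, nor is the use of strand. Cells map to samples by title, and 0 columns had no sample. The labels name 1 mouse for each sex.

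Counts were summed per animal and labelled subtype where both animals had 5 cells or more, which held for 15 subtypes. Genes were filtered with filterByExpr and fitted in edgeR 4.0.16 (R 4.3.3) with TMM scaling, with all 30 libraries in 1 fit, and the omnibus test and 6 pairs were taken from it (common biological coefficient of variation 1.15, 15 residual degrees of freedom). No test compares the animals. Alternatives were DESeq2 1.42.0, no filter, the animal as a replicate block, the run both animals share, each cell scaled to the same total, the pair alone, each library left out and, chosen after seeing the data, cells of the CD45 plates only, since 10 cells came from other gates. The pairing of libraries by animal comes from the labels. Over all pairs of subtypes the deviations of an animal correlated between -0.0596 and 0.0809, and 0 were above 0.1. On simulated data for Mac IV against Mac V with 15044 genes, 41 of 200 changed genes were called. Cell shares use thinning with a fixed seed and Clopper-Pearson intervals. The 9 receptors were named in full, the other lists by their called genes with the 5 highest levels, and similar genes as the 3 with the highest correlation. The members and lists were chosen with earlier results of these data known. The other genes followed in cells split by a receptor were chosen after the data were seen, and not all of them are named. Protein sequences were not used here. Results for some genes are not reported here.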

Additional observations from a re-analysis of the deposited data

Results flagged for a closer look

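Ccr2 moved in opposite directions between Mac II and Mac V in the 2 animals. The log2 ratio of Mac II to Mac V was 0.14 in the female, with 631 against 572 CPM, and -1.16 in the male, with 399 against 893 CPM. This difference between the animals was not tested, because each sex is 1 animal. The share of Ccr2-positive cells was higher in Mac II than in Mac V in both animals, 70.4% against 51.5% in the female and 80% against 65.9% in the male.

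The single cell labelled Mac I enters no comparison. Its Ccr2 level was 1827 CPM, its Cx3cr1 level 152.4 CPM and its Ccr1 level 10.25 CPM, from 2440160 reads. It is 1 cell of the male, and no error can be given.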

How the results depend on the processing

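With 1 animal of each sex, the counts of called genes depended on the setting, and no receptor that edgeR called changed direction under any of the settings run. Among receptors that were not called and had few reads, such as Ccr7 between neutrophils and Mac V, the sign did change with 1 library left out. Counts are given as the share of tested genes that were called. For neutrophils against Mac V it was 0.0793% in the shared run, 9.56% in DESeq2 and 0.846% in the fit of the pair alone. For Mac II against Mac V it was 0.186% with the replicate block, 0.0198% in the shared run, 5.49% in DESeq2 and 2.14% in the pair alone. For Mac IV against Mac V it was 0.0462%, 6.44% and 4.37% in the shared run, DESeq2 and the pair alone. For DC III against DC II it was 2.71%, 23.8% and 2.39%, and for T cells against B cells 0.205%, 6.17% and 1.1%. For basophils against mast cells it was 0.641% in the shared run and 17.2% in DESeq2. Without the filter, with each cell scaled and with the CD45 plates only, all 7 counts stayed within 1.5 times, and so they did with the replicate block in the other 6 comparisons. Leaving out 1 library gave 24% to 35.4% over all subtypes, 0.012% to 0.658% for neutrophils against Mac V, 0.0181% to 0.0241% for Mac II against Mac V, 0% to 0.0423% for Mac IV against Mac V, 2.03% to 3.24% for DC III against DC II, 0% to 0.0664% for T cells against B cells and 0.587% to 1.04% for basophils against mast cells, each with the lone library assumed to vary like the others. The cause of these differences between settings was not tested. Among the tests of single receptors, the replicate block changed 1 call, that of Ccr6 over all subtypes (adjusted p = 0.0678), and DESeq2 added 13 calls and lost 1. The share of calls in either direction moved with the tool and the libraries fitted: of the called genes, the share that was higher in the first class went from 28.6% in edgeR to 51.9% in DESeq2 for neutrophils against Mac V, from 57.7% to 79.4% for Mac IV against Mac V, from 19.2% to 30.9% for DC III against DC II and from 42.3% to 29.3% for basophils against mast cells. In the fit of the pair alone it was 77.3% for neutrophils against Mac V, 48.3% for DC III against DC II and 55.6% for basophils against mast cells. With each cell scaled it was 41.7% for Mac IV against Mac V. The Cx3cr1 level of DC II was 87.7 CPM as a mean over cells. The number of cells limits the shares of small classes, such as NK cells (5 and 7) and IL cells (9 and 5).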

Other observations

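Receptors outside the 9 were mostly found in few cells. Ccrl2, an atypical receptor that binds chemerin, stood in neutrophils at 147.9 and 195.5 CPM (female, then male, as in the pairs that follow), with 16.4% and 20.5% of the cells positive, and overlapped with mast cells at 154.03 and 104.9 CPM. Ccr4, known from type 2 lymphocytes, was highest in IL cells at 53.2 and 73.7 CPM. Ccr9, a receptor of thymic and gut-homing T cells, had 198.8 and 13.5 CPM in T cells, with 34.6% and 15% of the cells positive, and was not called over all subtypes (edgeR adjusted p = 0.0872). Ackr3, which binds Cxcl12 as Cxcr4 does, stood at 27.1 and 3.44 CPM in Mac IV, and in the male B cells had more, 13.3 CPM. Cmklr1 was highest in Mac IV, at 11.5 and 8.10 CPM.

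Some ligands stood in the cells that also read their receptor. Basophils had the highest Ccl3 and Ccl4 levels, 17848 and 27224 CPM and 10106 and 23196 CPM, and were among the classes highest in Ccr1, a receptor of Ccl3. Neutrophils had the highest Cxcl2 level, 961 and 1037 CPM, beside the highest level of its receptor Cxcr2. Mac IV had Cxcl10 at 3.62 and 139.4 CPM, overlapping with IL cells at 10.9 and 105.6 CPM. Of the Mac IV cells 3.17% and 6.33% were positive for Cxcl10, and 12.7% and 18.99% for its receptor Cxcr3. Transcripts of ligand and receptor say nothing of protein or of signalling between the cells.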
